A study of Mus musculus with 9 samples.

Results

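The 10 genes described here mark macrophages and monocytes: C1qa, C1qb, C1qc, Apoe, Lyz2, Cd68, Adgre1, Csf1r, Mrc1 and Fcgr1. They were taken by symbol from a table of 56860 genes, and 10 of 10 were among the 15292 genes with enough reads to be tested. The libraries were made from polyadenylated RNA of CD8+ T cells isolated by flow cytometry from mouse melanomas, so these genes belong to a cell type other than the one named in the labels. The cells were divided by surface α2,6-linked sialoglycan, a sugar chain ending in sialic acid, and by PD-1, an inhibitory receptor of activated T cells. The 3 groups were sialoglycan-low PD-1-positive cells (SiaLo_PD1pos), sialoglycan-high PD-1-positive cells (SiaHi_PD1pos) and sialoglycan-high PD-1-negative cells (SiaHi_PD1neg), with 3 libraries each. The groups shared a wild-type genotype and received no treatment. The tumour of origin is B16-OVA, an ovalbumin-expressing B16 line, in the sample labels and B16F10 in the series description. The sources used here do not give mouse age, mouse number or purity after sorting, and nothing says that replicates came from separate animals. The p-values therefore reflect library-to-library spread alone, some of which may be technical.

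Macrophages are phagocytes that clear dying cells and debris, and in tumours they arise largely from blood monocytes. They are a main source of complement C1q, of apolipoprotein E and of lysozyme, and they depend on signalling through the receptor Csf1r. Mature T cells are not known as a source of C1q or of the phagocyte receptors in this list.

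Each library held 9714020 to 15030442 counted reads. The label was checked with 10 genes of the T cell receptor complex and CD8 (Cd8a, Cd8b1, Trac, Trbc1, Trbc2, Lck, Cd247, Cd3d, Cd3e and Cd3g), called T cell core here. They took 0.646% to 0.699% of reads in SiaLo_PD1pos, 0.581% to 0.678% in SiaHi_PD1pos and 0.167% to 0.174% in SiaHi_PD1neg. The 10 macrophage genes took 0.105% to 0.134% of reads in SiaLo_PD1pos, 0.127% to 0.219% in SiaHi_PD1pos and 0.323% to 0.394% in SiaHi_PD1neg. Per 1000 T cell core reads there were 150.2 to 199.0 reads of these genes in SiaLo_PD1pos, 209 to 323 in SiaHi_PD1pos and 1851 to 2356 in SiaHi_PD1neg. In SiaHi_PD1neg the macrophage genes thus had more reads than the T cell core in all 3 libraries, and in the PD-1-positive groups fewer in all 6. In such bulk samples fewer macrophages and less of this RNA per macrophage cannot be told apart.

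Lists of other cell types also differed between the groups. Their levels are given as CPM, read counts scaled to library size with TMM factors for composition, summed over a list. Of 10 conventional dendritic cell genes, led in mean level over the 9 libraries by the MHC class II chaperone Cd74, 8 were lower and 1 higher (Ccr7, an activation-linked chemokine receptor) in SiaHi_PD1pos than in SiaHi_PD1neg. Their sum was 1081 to 1329 CPM in SiaLo_PD1pos, 1909 to 3431 CPM in SiaHi_PD1pos and 10413 to 11580 CPM in SiaHi_PD1neg. The 7 plasmacytoid dendritic cell genes, led by Bst2, summed to 181 to 242 CPM in SiaLo_PD1pos, 223 to 338 CPM in SiaHi_PD1pos and 2819 to 5327 CPM in SiaHi_PD1neg, and 7 of 7 were lower in SiaHi_PD1pos than in SiaHi_PD1neg. The 8 melanoma genes, led by the pigment enzyme Tyrp1, summed to 1619 to 3234 CPM in SiaLo_PD1pos, 824 to 953 CPM in SiaHi_PD1pos and 3852 to 8163 CPM in SiaHi_PD1neg, and 8 of 8 were lower in SiaHi_PD1pos than in SiaHi_PD1neg. Both PD-1-positive groups were thus below SiaHi_PD1neg for each of these lists, and 10 of 10 T cell genes were higher in SiaHi_PD1pos than in SiaHi_PD1neg.

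For each remaining list the mean sum was highest in SiaHi_PD1neg, with overlap between the sialoglycan-high groups for the neutrophil list. Fibroblast genes, led by the collagen gene Col3a1, summed to 331 to 588 CPM in SiaLo_PD1pos, 446 to 533 CPM in SiaHi_PD1pos and 861 to 1245 CPM in SiaHi_PD1neg, and 5 of 5 were lower in SiaHi_PD1pos than in SiaHi_PD1neg. Endothelial genes, led by the adhesion molecule Pecam1, summed to 95.6 to 117 CPM in SiaLo_PD1pos, 102 to 128 CPM in SiaHi_PD1pos and 329.8 to 465 CPM in SiaHi_PD1neg. B cell genes, led by the immunoglobulin chain Ighm, summed to 105 to 106 CPM in SiaLo_PD1pos, 224 to 306 CPM in SiaHi_PD1pos and 504 to 844 CPM in SiaHi_PD1neg. Neutrophil genes, another phagocyte list, were nearly absent: Retnlg was at 0 reads in all 9 libraries, S100a8 and S100a9 had 0 to 36 reads, and the list, nearly all Csf3r, summed to 8.08 to 8.81 CPM in SiaLo_PD1pos, 12.0 to 16.3 CPM in SiaHi_PD1pos and 11.6 to 33.1 CPM in SiaHi_PD1neg. Of the endothelial genes 4 of 5 were lower in SiaHi_PD1pos than in SiaHi_PD1neg. The same held for 2 of 3 tested B cell genes and 0 of 2 tested neutrophil genes. For all marker lists the background in this comparison was 19.2% of all tested genes lower and 21.1% higher. The part of each of these lists in the results below was not tested.

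**Figure D1:**
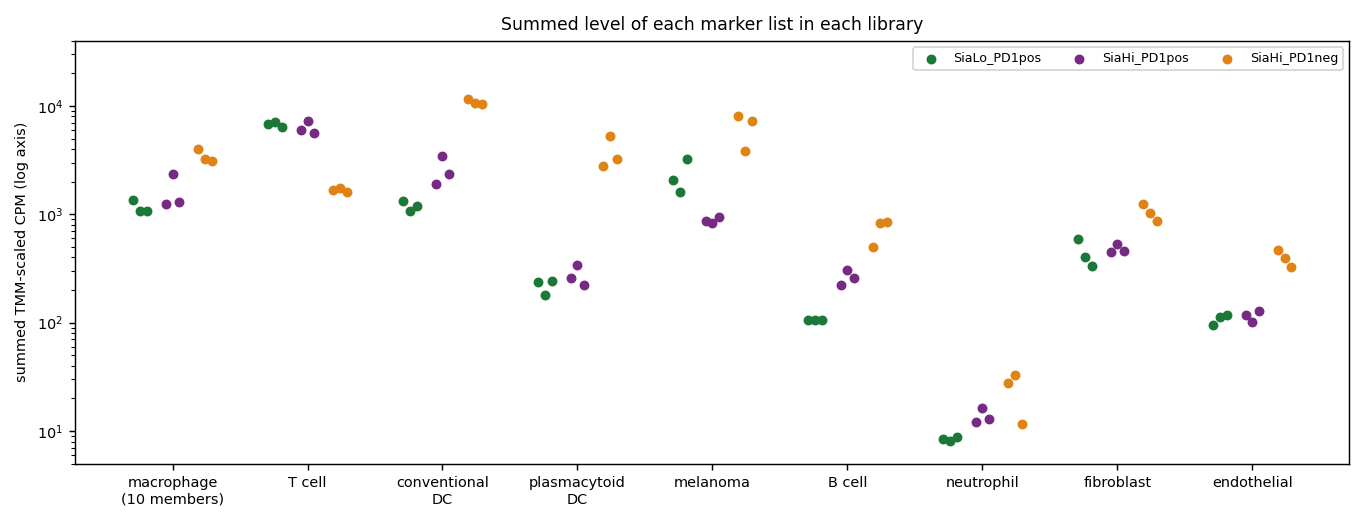
Summed TMM-scaled CPM of each marker list (log axis) in each library, with SiaLo_PD1pos left of SiaHi_PD1pos and SiaHi_PD1neg in every list; each point is 1 library. The 10 macrophage genes sum to 1069 to 1346 CPM in SiaLo_PD1pos, 1253 to 2358 CPM in SiaHi_PD1pos and 3105 to 3970 CPM in SiaHi_PD1neg, while the T cell list runs the other way.

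All 10 macrophage genes were lower in SiaHi_PD1pos than in SiaHi_PD1neg and all 10 were lower in SiaLo_PD1pos than in SiaHi_PD1neg, at an adjusted p under 0.05 in edgeR's quasi-likelihood test. The lysosomal gene Cd68 differed most, at 3.79-fold lower in SiaHi_PD1pos and 4.88-fold lower in SiaLo_PD1pos, and the other 9 were 1.56- to 2.43-fold lower in SiaHi_PD1pos and 2.30- to 3.34-fold lower in SiaLo_PD1pos. The median log2 fold change of the 10 was -1.08 for SiaHi_PD1pos over SiaHi_PD1neg, against 0.024 for all tested genes, and -1.48 for SiaLo_PD1pos over SiaHi_PD1neg, against 0.012. For the background, 19.2% of all tested genes were lower in SiaHi_PD1pos than in SiaHi_PD1neg and 18.9% were lower in SiaLo_PD1pos. The 2 comparisons share the SiaHi_PD1neg libraries. Between the 2 PD-1-positive groups none of the 10 genes passed the test.

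The 3 C1q genes encode the chains of C1q, the molecule that starts the classical complement pathway and coats dying cells for uptake. They lie side by side on the minus strand of chromosome 4 in mouse build GRCm38, C1qb at 136880129 to 136886187, C1qc at 136889804 to 136893065 and C1qa at 136895917 to 136898803, a stretch of 18.7 kb. The promoters of C1qb and C1qc are printed because these neighbours encode chains of 1 molecule, and those of Cd68 and Mrc1 because these were the members whose patterns lay farthest apart. Each runs from 250 bases before to 50 bases after the transcription start, 5′ to 3′ on the gene's strand, from RefSeq on GRCm38.p6. The positions are chr4:136886151-136886450 (minus strand) for C1qb, chr4:136892865-136893164 (minus strand) for C1qc, chr11:69666121-69666420 (minus strand) for Cd68 and chr2:14229164-14229463 (plus strand) for Mrc1. Capitals mark the letters GAGGAA or their reverse complement TTCCTC, a core sequence bound by PU.1, the myeloid transcription factor encoded by Spi1.
C1qb: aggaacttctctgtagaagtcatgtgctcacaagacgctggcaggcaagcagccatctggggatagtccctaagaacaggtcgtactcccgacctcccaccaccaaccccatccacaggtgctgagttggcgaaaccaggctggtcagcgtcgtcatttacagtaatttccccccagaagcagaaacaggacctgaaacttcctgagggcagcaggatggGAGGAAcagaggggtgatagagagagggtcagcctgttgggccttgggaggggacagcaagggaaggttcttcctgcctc
C1qc: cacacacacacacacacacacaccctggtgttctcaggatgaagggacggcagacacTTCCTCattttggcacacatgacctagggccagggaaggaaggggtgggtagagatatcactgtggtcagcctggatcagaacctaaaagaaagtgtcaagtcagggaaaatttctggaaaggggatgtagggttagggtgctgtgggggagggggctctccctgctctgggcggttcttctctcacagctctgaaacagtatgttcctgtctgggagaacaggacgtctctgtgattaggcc
Cd68: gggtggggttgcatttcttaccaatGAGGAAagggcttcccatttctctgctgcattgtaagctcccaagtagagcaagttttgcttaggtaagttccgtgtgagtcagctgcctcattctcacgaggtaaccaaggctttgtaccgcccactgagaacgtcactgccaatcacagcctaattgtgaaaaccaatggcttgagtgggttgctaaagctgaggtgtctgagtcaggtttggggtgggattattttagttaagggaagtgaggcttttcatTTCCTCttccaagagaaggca
Mrc1: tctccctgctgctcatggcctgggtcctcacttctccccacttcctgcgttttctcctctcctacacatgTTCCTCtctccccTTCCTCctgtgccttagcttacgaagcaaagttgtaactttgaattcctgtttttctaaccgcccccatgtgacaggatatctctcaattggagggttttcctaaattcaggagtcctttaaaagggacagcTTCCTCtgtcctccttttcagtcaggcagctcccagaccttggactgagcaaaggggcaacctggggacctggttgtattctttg

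The match lay 30 bases before the start in C1qb and 193 before it in C1qc. In Cd68 there was a match 225 bases before and another 29 bases after the start, and in Mrc1 there were matches 180, 167 and 35 bases before it. Promoter windows were at hand for 7 of the 10 genes, 9 windows in all since Apoe has 3, and 7 of the 9 held at least 1 match on either strand. The windows without a match were that of Lyz2 and 1 of those of Apoe. Of all 32851 RefSeq promoters of this length, 28.3% held the same letters. A match describes the letters in the window and is not evidence of binding.

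C1qa reached 126, 100.03 and 98.2 CPM in SiaLo_PD1pos, 118, 211 and 106 CPM in SiaHi_PD1pos and 417, 278 and 239.8 CPM in SiaHi_PD1neg. C1qb reached 139, 109 and 108 CPM in SiaLo_PD1pos, 127, 224 and 105 CPM in SiaHi_PD1pos and 329, 293 and 262 CPM in SiaHi_PD1neg. C1qc reached 102, 82.4 and 78.1 CPM in SiaLo_PD1pos, 86.0, 145 and 86.3 CPM in SiaHi_PD1pos and 299, 178 and 184 CPM in SiaHi_PD1neg. For each chain the 3 SiaHi_PD1neg libraries lay above all 6 PD-1-positive libraries, and replicate 2 stood highest within SiaHi_PD1pos. The log2 fold change of SiaHi_PD1pos over SiaHi_PD1neg was -1.11 ± 0.25 for C1qa (SE, adjusted p = 0.00343), -0.95 ± 0.23 for C1qb (adjusted p = 0.00464) and -1.06 ± 0.23 for C1qc (adjusted p = 0.00275). For SiaLo_PD1pos over SiaHi_PD1neg it was -1.53 ± 0.26 for C1qa (adjusted p = 0.000356), -1.31 ± 0.23 for C1qb (adjusted p = 0.00052) and -1.33 ± 0.24 for C1qc (adjusted p = 0.000554). The 3 chains were thus 1.93- to 2.16-fold lower in SiaHi_PD1pos and 2.48- to 2.88-fold lower in SiaLo_PD1pos.

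Apoe, on chromosome 7 at 19696109 to 19699188 (GRCm38, minus strand), encodes apolipoprotein E, a lipid carrier that macrophages secrete. It reached 475, 327 and 429 CPM in SiaLo_PD1pos, 395, 635 and 424 CPM in SiaHi_PD1pos and 1407, 903 and 1221 CPM in SiaHi_PD1neg. The lowest SiaHi_PD1neg library was above the highest of the other 6. Apoe was 2.43-fold lower in SiaHi_PD1pos (log2 fold change -1.28 ± 0.21, adjusted p = 0.000327) and 2.87-fold lower in SiaLo_PD1pos (-1.52 ± 0.21, adjusted p = 7.72e-05) than in SiaHi_PD1neg.

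Lyz2, on chromosome 10 at 117277331 to 117282321 (GRCm38, minus strand), encodes the lysozyme of macrophages, monocytes and neutrophils. Its near-identical neighbour Lyz1 can share its reads, so its level is uncertain. It reached 313, 289.7 and 216 CPM in SiaLo_PD1pos, 339.6, 868 and 365 CPM in SiaHi_PD1pos and 946, 1048 and 738 CPM in SiaHi_PD1neg. Replicate 2 of SiaHi_PD1pos lay within the SiaHi_PD1neg range, so Lyz2 was the 1 member whose libraries overlapped between these groups, while the other 9 lay below without overlap (background 23.4% of tested genes). Lyz2 was 1.74-fold lower in SiaHi_PD1pos than in SiaHi_PD1neg (log2 fold change -0.80 ± 0.29, adjusted p = 0.0454). That call was lost with DESeq2 (adjusted p = 0.107), with only the 6 libraries compared (adjusted p = 0.0776) and in 7 of 9 fits with 1 library left out (adjusted p up to 0.189), all but those without SiaHi_PD1pos replicate 2 or SiaHi_PD1neg replicate 3. Without SiaHi_PD1pos replicate 2 the log2 fold change was -1.35 (adjusted p = 4.97e-05). In SiaLo_PD1pos it was 3.34-fold lower than in SiaHi_PD1neg (-1.74 ± 0.30, adjusted p = 0.000472), with no overlap, as for all 10 members (background 25.1%).

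Cd68, on chromosome 11 at 69664213 to 69666153 (GRCm38, minus strand), encodes macrosialin, a heavily glycosylated protein of lysosomes and late endosomes. It reached 36.4, 41.4 and 34.2 CPM in SiaLo_PD1pos, 41.4, 67.2 and 35.7 CPM in SiaHi_PD1pos and 197, 203 and 146 CPM in SiaHi_PD1neg. The gap between SiaHi_PD1neg and the other groups was the widest among the 10 members by fold change. Cd68 fell by 1.92 ± 0.22 on the log2 scale in SiaHi_PD1pos (adjusted p = 1.48e-05) and by 2.29 ± 0.22 in SiaLo_PD1pos (adjusted p = 2.7e-06), each against SiaHi_PD1neg. Dendritic cells also express Cd68, and their marker sums are given above.

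Of the surface receptors, Adgre1 (F4/80, the classical mouse macrophage antigen, chromosome 17 at 57358691 to 57483527, plus strand) reached 46.4, 32.1 and 30.9 CPM in SiaLo_PD1pos, 38.8, 55.3 and 41.9 CPM in SiaHi_PD1pos and 117, 88.0 and 101 CPM in SiaHi_PD1neg. Its log2 fold change was -1.17 ± 0.20 in SiaHi_PD1pos (adjusted p = 0.000364) and -1.48 ± 0.20 in SiaLo_PD1pos (adjusted p = 5.16e-05) over SiaHi_PD1neg. Fcgr1 (CD64, the high-affinity IgG receptor, chromosome 3 at 96282909 to 96293969, minus strand) reached 31.2, 26.1 and 20.6 CPM in SiaLo_PD1pos, 25.8, 33.3 and 17.6 CPM in SiaHi_PD1pos and 67.8, 59.1 and 52.2 CPM in SiaHi_PD1neg. Both genes separated SiaHi_PD1neg from the other groups without overlap. For Fcgr1 the log2 fold change was -1.22 ± 0.23 in SiaHi_PD1pos (adjusted p = 0.000993) and -1.20 ± 0.23 in SiaLo_PD1pos (adjusted p = 0.00113).

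Csf1r, the receptor for the growth factors Csf1 and Il34, reached 49.3, 40.03 and 36.6 CPM in SiaLo_PD1pos, 49.2, 72.2 and 59.2 CPM in SiaHi_PD1pos and 119, 114 and 103 CPM in SiaHi_PD1neg. It was 1.86-fold lower in SiaHi_PD1pos (log2 fold change -0.90 ± 0.17, adjusted p = 0.000833) and 2.66-fold lower in SiaLo_PD1pos (-1.41 ± 0.17, adjusted p = 1.96e-05) than in SiaHi_PD1neg. Its exons share 873 bases with Hmgxb3 on the opposite strand, and the strand setting of the counting is not given in the sources used here. The reads of Hmgxb3 came to 60.2%, 82.9% and 96.5% of those of Csf1r in SiaLo_PD1pos, 59.6%, 26.9% and 59.4% in SiaHi_PD1pos and 23.4%, 23.5% and 27.8% in SiaHi_PD1neg. This share was higher in SiaLo_PD1pos than in SiaHi_PD1neg without overlap, so both the level of Csf1r and its fold changes are uncertain, and the part of Hmgxb3 reads in them was not tested.

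Mrc1, the mannose receptor CD206 of tissue macrophages (chromosome 2 at 14229392 to 14332057, plus strand), reached 27.3, 27.0 and 17.8 CPM in SiaLo_PD1pos, 32.9, 47.8 and 47.9 CPM in SiaHi_PD1pos and 70.2, 72.3 and 58.2 CPM in SiaHi_PD1neg. It was the 1 member with 3 groups that did not overlap and stood in the order SiaLo_PD1pos, SiaHi_PD1pos, SiaHi_PD1neg from low to high. Its log2 fold change over SiaHi_PD1neg was -0.64 ± 0.20 in SiaHi_PD1pos (adjusted p = 0.0224) and -1.47 ± 0.21 in SiaLo_PD1pos (adjusted p = 8.63e-05). The first of these was lost without SiaHi_PD1pos replicate 1 (adjusted p = 0.124), SiaHi_PD1neg replicate 1 (adjusted p = 0.0671) or SiaHi_PD1neg replicate 2 (adjusted p = 0.0739).

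**Figure D2:**
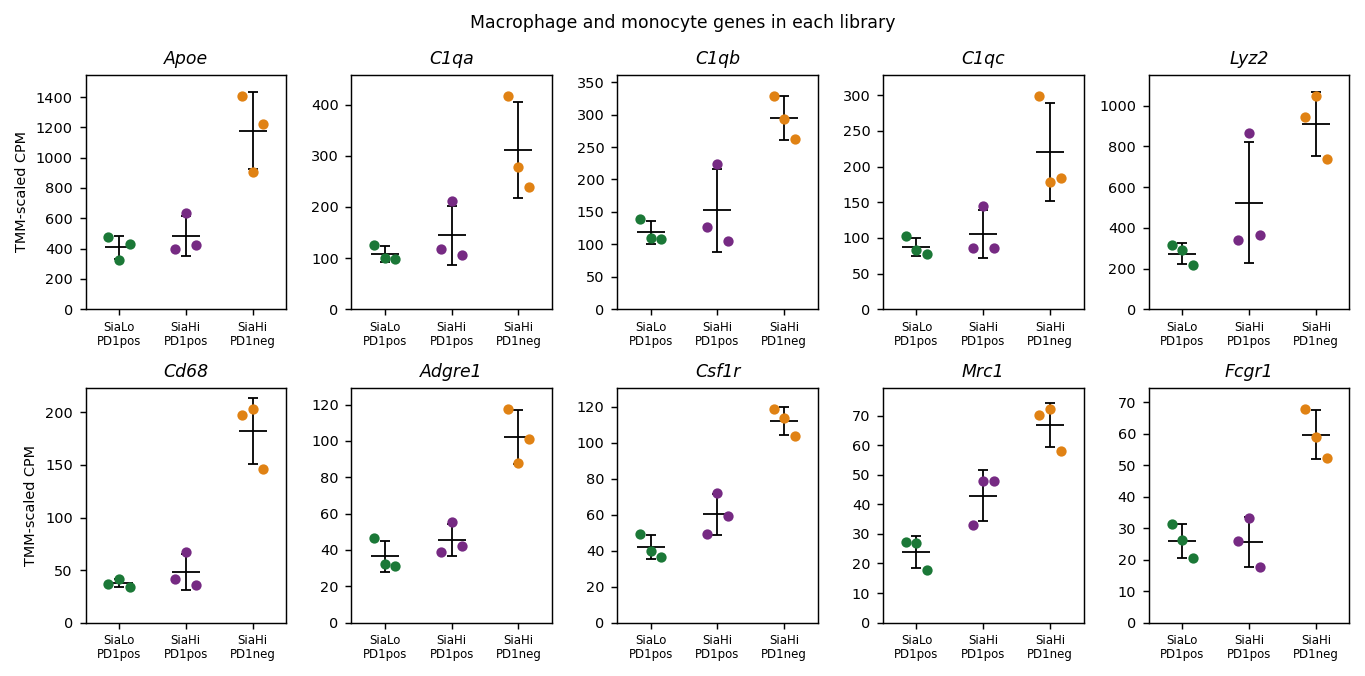
TMM-scaled CPM of each of the 10 genes in SiaLo_PD1pos, SiaHi_PD1pos and SiaHi_PD1neg; points are single libraries in replicate order, horizontal bars the mean and whiskers the SD of 3. The SiaHi_PD1neg libraries lie above both PD-1-positive groups for every gene except Lyz2, where SiaHi_PD1pos replicate 2 reaches 868 CPM.

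Between the PD-1-positive groups the 10 genes had lower estimates in SiaLo_PD1pos for 9 members and near 0 for Fcgr1, with none called by edgeR. The background was 1.13% of tested genes lower and 0.268% higher in SiaLo_PD1pos than in SiaHi_PD1pos. At an unadjusted p under 0.05, 3 members were lower (Lyz2, Csf1r and Mrc1) and 0 higher, against 5.36% and 3.3% of all tested genes. DESeq2 and limma-voom each called 1 member lower, Mrc1. The median log2 fold change of the members was -0.36, against -0.0062 for all tested genes, and without SiaHi_PD1pos replicate 2 it was -0.026. That library had the highest level of its group for 9 of 10 members. It was also the highest of its group for the conventional dendritic cell sum, at 3431 CPM against 1909 and 2358 CPM. The T cell sum was highest there too, at 7306 CPM against 6004 and 5636 CPM. So were the plasmacytoid dendritic cell, B cell, fibroblast and neutrophil sums. Its melanoma sum (824 CPM against 875 and 953 CPM) and endothelial sum (102 CPM against 118 and 128 CPM) were the lowest of the group. The part of these cell types in the levels of that library was not tested.

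The widest differences in this comparison were those of Lyz2 and Mrc1, the 2 members whose SiaLo_PD1pos libraries lay below all SiaHi_PD1pos libraries (background 9.94%). Lyz2 averaged 273 ± 50.9 CPM in SiaLo_PD1pos and 524 ± 298 CPM in SiaHi_PD1pos (SD, n = 3 each), a log2 fold change of -0.94 ± 0.30 (95% interval -1.58 to -0.30, adjusted p = 0.21), and without SiaHi_PD1pos replicate 2 it was -0.35. Mrc1 averaged 24 ± 5.4 CPM in SiaLo_PD1pos and 42.9 ± 8.64 CPM in SiaHi_PD1pos, a log2 fold change of -0.83 ± 0.21 (95% interval -1.28 to -0.39, adjusted p = 0.0773), and without that library it was -0.72. Mrc1 passed the threshold in 4 of 9 other settings of the analysis. Csf1r had a log2 fold change of -0.52 ± 0.17 (adjusted p = 0.235).

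The other members had intervals that included 0. Apoe had a log2 fold change of -0.24 (95% interval -0.69 to 0.21) and Cd68 one of -0.37 (-0.83 to 0.10). For the C1q chains the interval ran from -0.96 to 0.12 for C1qa, from -0.85 to 0.13 for C1qb and from -0.77 to 0.23 for C1qc. Adgre1 had -0.31 (-0.73 to 0.11) and Fcgr1 0.025 (-0.48 to 0.53). Without SiaHi_PD1pos replicate 2 the estimates of Apoe, C1qb and C1qc turned to 0.027, 0.055 and 0.048.

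**Figure D3:**
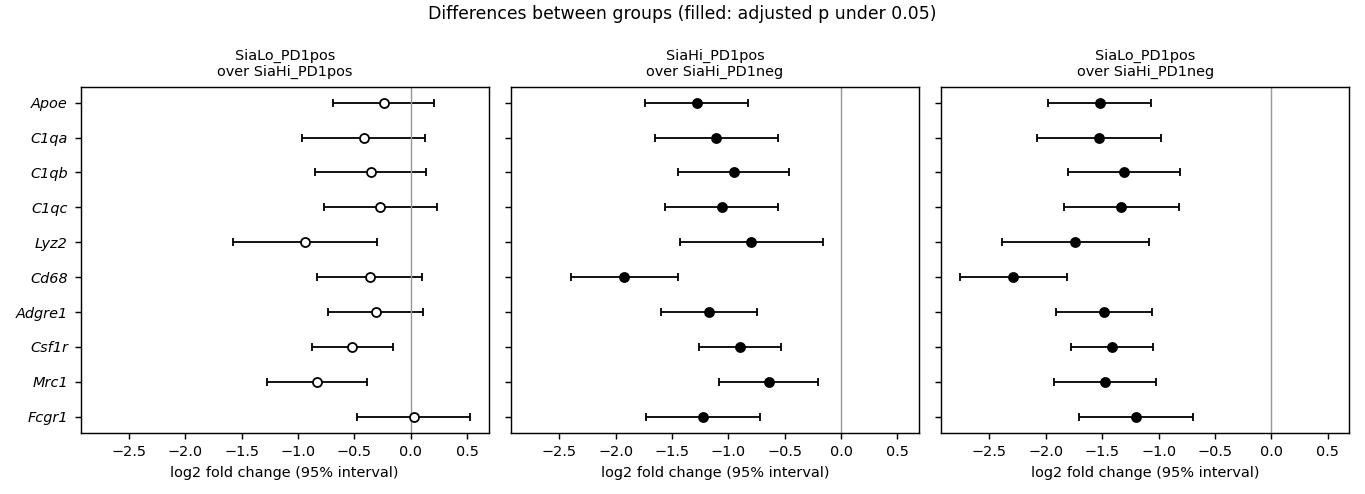
Log2 fold change with 95% interval of each gene for SiaLo_PD1pos over SiaHi_PD1pos (left), SiaHi_PD1pos over SiaHi_PD1neg (middle) and SiaLo_PD1pos over SiaHi_PD1neg (right); filled points passed an adjusted p under 0.05 and negative values mean lower in the first-named group. None is filled on the left and all 10 are filled in the other panels, with Cd68 farthest from 0.

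Relative to T cell transcripts the differences from SiaHi_PD1neg were wider. With library factors set by the T cell core, the median of all tested genes moved to -1.86 for SiaHi_PD1pos over SiaHi_PD1neg, to -1.99 for SiaLo_PD1pos over SiaHi_PD1neg and to -0.12 for SiaLo_PD1pos over SiaHi_PD1pos. The members' medians were then -3.02, -3.49 and -0.43. The members were 5.81-fold (Mrc1) to 14.4-fold (Cd68) lower in SiaHi_PD1pos and 9.26-fold (Fcgr1) to 19.6-fold (Cd68) lower in SiaLo_PD1pos than in SiaHi_PD1neg. Most genes moved the same way under this scaling. Of all tested genes it called 284 higher and 12315 lower in SiaHi_PD1pos, in place of 3226 and 2934 with TMM, and 281 higher and 12531 lower in SiaLo_PD1pos, in place of 3139 and 2888. For SiaLo_PD1pos over SiaHi_PD1pos it called 11 higher and 205 lower, in place of 41 and 173, and among the members it called Mrc1 lower (adjusted p = 0.0405).

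The shares of the C1q chains varied less than their levels. Each chain is part of its own total, so changes common to the chains cancel in these shares by construction. Of every 100 C1q reads, C1qa took 34.3 to 39.9, C1qb 31.5 to 39.1 and C1qc 23.8 to 29.0 over the 9 libraries, although the level of C1qa itself ran from 98.2 to 417 CPM. Per 100 C1q reads Adgre1 had 10.9 to 12.6 reads in SiaLo_PD1pos, 9.54 to 14.1 in SiaHi_PD1pos and 11.2 to 14.7 in SiaHi_PD1neg, with overlapping groups. Cd68 stood apart. It had 9.89, 14.2 and 12.0 reads per 100 C1q reads in SiaLo_PD1pos, 12.5, 11.6 and 12.0 in SiaHi_PD1pos and 18.9, 27.1 and 21.3 in SiaHi_PD1neg. The ratio was lower in both PD-1-positive groups without overlap (0.543-fold in SiaHi_PD1pos and 0.537-fold in SiaLo_PD1pos), and the exact two-sided permutation test gave p = 0.1 for each, the smallest that 3 against 3 libraries allow (0.7 after Benjamini-Hochberg adjustment over 21 ratios).

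Lyz2 had 85.2, 99.2 and 75.9 reads per 100 C1q reads in SiaLo_PD1pos and 103, 149.6 and 123 in SiaHi_PD1pos, 0.698-fold and without overlap (exact permutation p = 0.1). In SiaHi_PD1neg it had 90.5, 139.9 and 108, which overlapped both other groups. Mrc1 had 6.26 to 9.24 in SiaLo_PD1pos, 8.24 to 16.1 in SiaHi_PD1pos and 6.72 to 9.65 in SiaHi_PD1neg, and SiaHi_PD1pos replicate 3 was its highest. The C1qa share of the C1q reads was 34.3 to 34.5 in SiaLo_PD1pos, 35.5 to 36.3 in SiaHi_PD1pos and 35.0 to 39.9 in SiaHi_PD1neg, so that SiaLo_PD1pos lay just below both others (exact permutation p = 0.1 each). For Apoe, Adgre1, Csf1r, Mrc1 and Fcgr1 the ratios overlapped in every comparison.

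**Figure D4:**
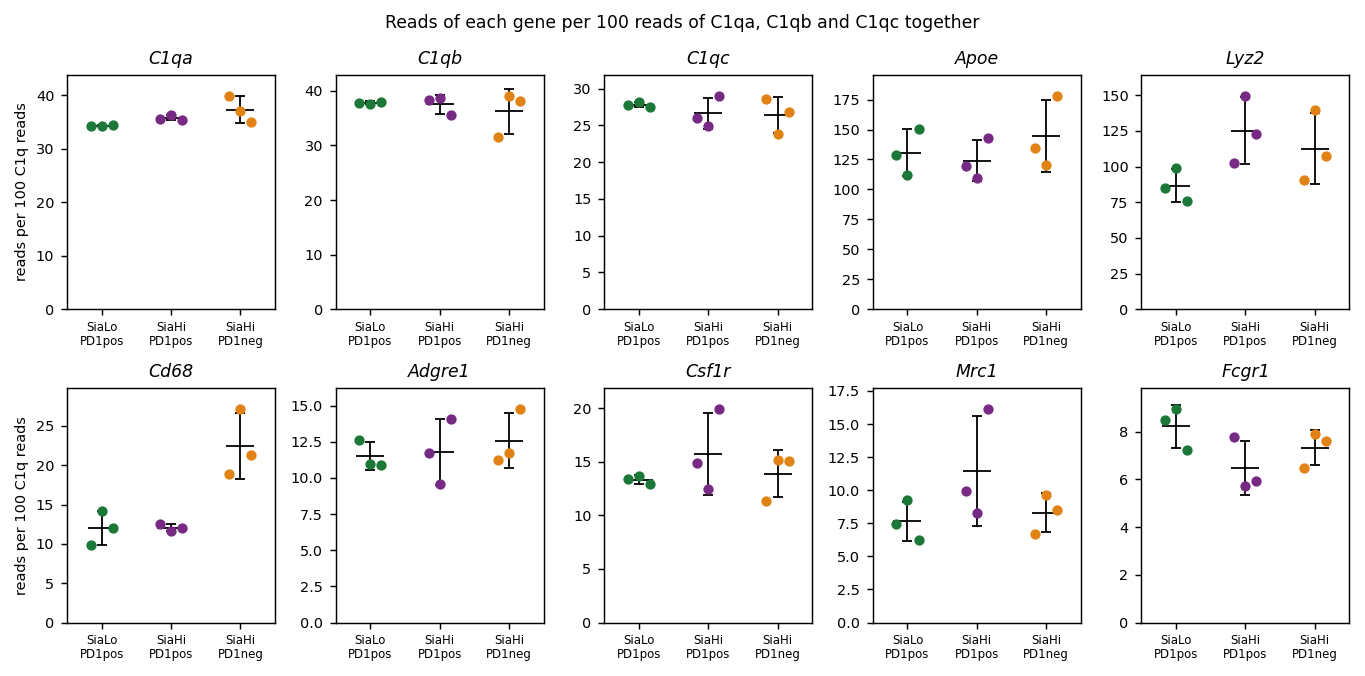
Reads of each gene per 100 reads of C1qa, C1qb and C1qc together in SiaLo_PD1pos, SiaHi_PD1pos and SiaHi_PD1neg; points are single libraries, bars the mean and whiskers the SD of 3. The Cd68 ratio is 18.9 to 27.1 in SiaHi_PD1neg and at most 14.2 in the other libraries, while most genes show overlapping groups.

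Per length, in TPM, which divides reads by gene length, the order of levels was much the same in each group. Lyz2 led with a mean of 598 ± 94.4 TPM in SiaLo_PD1pos, 1094 ± 454 TPM in SiaHi_PD1pos and 1925 ± 264 TPM in SiaHi_PD1neg, followed by Apoe with 557 ± 111, 639 ± 84.3 and 1537 ± 317 TPM (SD, n = 3 each). The ranges of Lyz2 and Apoe overlapped in SiaLo_PD1pos and SiaHi_PD1neg. C1qa and C1qb came next, with 301 and 316 TPM in SiaLo_PD1pos, 388 and 389 TPM in SiaHi_PD1pos and 829 and 753 TPM in SiaHi_PD1neg. Their ranges overlapped in each group. Library by library, C1qb was slightly above C1qa throughout SiaLo_PD1pos (366 and 347, 283 and 270, 300 and 285 TPM). In the other groups the order varied between libraries. C1qc was above Cd68 without overlap in SiaLo_PD1pos (131 and 85.8 TPM) and SiaHi_PD1pos (154 and 107 TPM). In SiaHi_PD1neg the ranges of C1qc and Cd68 overlapped (316 and 403 TPM). Within each SiaHi_PD1neg library, however, C1qc was below Cd68 (406 and 411, 256 and 448, 286 and 350 TPM). Below them came Adgre1 with 32.6, 39.8 and 88.0 TPM, and Fcgr1 with 28.9, 27.8 and 64.1 TPM, in SiaLo_PD1pos, SiaHi_PD1pos and SiaHi_PD1neg. Csf1r had 21.0, 29.7 and 54.1 TPM and Mrc1 was lowest with 10.9, 19.3 and 29.3 TPM in the same groups. The ranges of Fcgr1 and Csf1r overlapped in both PD-1-positive groups, though Fcgr1 was above Csf1r within each SiaLo_PD1pos library.

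Across the 9 libraries the patterns of C1qa and C1qc were most alike of the 45 pairs of members, with a root mean square difference of 0.12 in centred log2 CPM, and those of Cd68 and Mrc1 least alike, with 0.60. By the same measure over 10357 other genes with a mean of at least 5 CPM, the mean C1q pattern was nearest to Ifi204 (0.11), an interferon-induced gene, Ftl1 (0.12), the ferritin light chain, Fcgr4 (0.13), an IgG receptor, Lgmn (0.15), a lysosomal protease, and Klra2 (0.17). Apoe was nearest to Selenop (0.11), a secreted selenoprotein, and then to Igfbp4, Msr1, Tnfaip2 and Irgm1 (0.12 to 0.17). Lyz2 was nearest to the chemokine Ccl6 (0.12), and Lpl, Pla2g7 and Cyp4f18 were also among its nearest genes (0.17 to 0.22). Mrc1 was less closely matched, with Il1rn (0.20) first and Lpl, Mvp, Nfkbid and Tlr1 after it (0.22). The libraries in these patterns share the group differences in other cell types given above.

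Other genes of the phagocyte programme were lower in the PD-1-positive groups as well. Of 67 companion genes in 7 lists, 39 were lower and 2 higher in SiaHi_PD1pos than in SiaHi_PD1neg, and 26 did not pass. The background was 19.2% of all tested genes lower and 21.1% higher. In SiaLo_PD1pos 49 were lower and 1 higher than in SiaHi_PD1neg, and 17 did not pass (background 18.9% lower and 20.5% higher). Between SiaLo_PD1pos and SiaHi_PD1pos, 5 were lower, 1 was higher and 61 did not pass (background 1.13% lower and 0.268% higher). With T cell core scaling 8 were lower and 0 higher in that comparison. The TMM shares are also the background for the counts of single lists below. Without SiaHi_PD1pos replicate 2 the counts were 46 called for SiaHi_PD1pos over SiaHi_PD1neg, 51 for SiaLo_PD1pos over SiaHi_PD1neg and 4 for SiaLo_PD1pos over SiaHi_PD1pos.

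Of 8 complement genes 6 were lower in SiaHi_PD1pos and 7 in SiaLo_PD1pos than in SiaHi_PD1neg. The most abundant, C3, the central complement protein, averaged 65.7 ± 13 CPM in SiaLo_PD1pos, 76.1 ± 5.95 CPM in SiaHi_PD1pos and 149 ± 18.4 CPM in SiaHi_PD1neg (SD, n = 3 each). Its log2 fold change over SiaHi_PD1neg was -0.97 in SiaHi_PD1pos (adjusted p = 0.00032) and -1.18 in SiaLo_PD1pos (adjusted p = 5.97e-05). Of 5 Fc receptor genes 5 were lower in each of these groups. Tyrobp, the adaptor of activating myeloid and NK receptors, averaged 31.2 ± 1.12 CPM in SiaLo_PD1pos, 56.6 ± 25.5 CPM in SiaHi_PD1pos and 359.8 ± 99.3 CPM in SiaHi_PD1neg. That was 6.35-fold lower in SiaHi_PD1pos (adjusted p = 5.21e-06) and 11.5-fold lower in SiaLo_PD1pos (adjusted p = 4.29e-07), a wider difference than for any of the 10 members.

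Of 12 phagocytic receptors 6 were lower in SiaHi_PD1pos and 8 in SiaLo_PD1pos than in SiaHi_PD1neg. Axl, a receptor for dying cells with the highest mean of this list over the 9 libraries, though below Cd36 in SiaHi_PD1neg, averaged 58.5 ± 7.04 CPM in SiaLo_PD1pos, 71.4 ± 11.2 CPM in SiaHi_PD1pos and 107 ± 13 CPM in SiaHi_PD1neg (SD, n = 3 each). Its call in SiaHi_PD1pos (log2 fold change -0.58, adjusted p = 0.0104) was lost without SiaHi_PD1pos replicate 1 or SiaHi_PD1neg replicate 1 (adjusted p up to 0.0726). The lipid receptor Cd36 fell to 32.9 ± 3.01 CPM in SiaHi_PD1pos, against 157 ± 37.6 CPM in SiaHi_PD1neg, 4.79-fold (adjusted p = 2.95e-06). The β-glucan receptor Clec7a averaged 29.7 ± 0.448 CPM in SiaLo_PD1pos and 70.7 ± 20.6 CPM in SiaHi_PD1pos, and it was lower in SiaLo_PD1pos (log2 fold change -1.25 ± 0.20, adjusted p = 0.0052).

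Of 10 genes of lipid handling and lysosomes 7 were lower in SiaHi_PD1pos and 9 in SiaLo_PD1pos than in SiaHi_PD1neg. Pltp, the phospholipid transfer protein, averaged 20.9 ± 5.11 CPM in SiaLo_PD1pos, 37.9 ± 8.34 CPM in SiaHi_PD1pos and 335 ± 84.6 CPM in SiaHi_PD1neg, 8.85-fold lower in SiaHi_PD1pos (adjusted p = 3.88e-07) and 16-fold lower in SiaLo_PD1pos (adjusted p = 4.72e-08). Gpnmb, a glycoprotein of lipid-laden macrophages and of melanocytes, was the 1 companion called higher in SiaLo_PD1pos than in SiaHi_PD1pos. It reached 279.5, 216 and 443 CPM in SiaLo_PD1pos, 124, 116 and 131 CPM in SiaHi_PD1pos and 971, 511 and 918 CPM in SiaHi_PD1neg. The log2 fold change of SiaLo_PD1pos over SiaHi_PD1pos was 1.34 ± 0.26 (adjusted p = 0.0215), and the call was lost in 4 of 9 fits with 1 library left out (SiaLo_PD1pos replicate 3 or any SiaHi_PD1pos replicate, adjusted p up to 0.0983). The melanoma list moved the same way, with 3 of 8 genes called higher in SiaLo_PD1pos, and its part in the Gpnmb result was not tested.

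The list of colony-stimulating factors, their receptors and myeloid transcription factors was mixed. Of 10 genes, 6 were lower and 1 higher in both SiaHi_PD1pos and SiaLo_PD1pos than in SiaHi_PD1neg. The higher gene was Csf1, the ligand of Csf1r, which activated T cells can also make. It reached 71.1, 78.7 and 75.0 CPM in SiaLo_PD1pos, 53.4, 65.7 and 55.2 CPM in SiaHi_PD1pos and 14.0, 14.3 and 14.8 CPM in SiaHi_PD1neg. Ligand and receptor thus ran in opposite directions, with Csf1 4.04-fold higher in SiaHi_PD1pos (adjusted p = 4.62e-07) and 5.21-fold higher in SiaLo_PD1pos (adjusted p = 7.37e-08) than in SiaHi_PD1neg. With T cell core scaling the log2 fold change of Csf1 over SiaHi_PD1neg was 0.11 in SiaHi_PD1pos, not called, and 0.37 in SiaLo_PD1pos.

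The receptor genes for GM-CSF were lower in all 3 comparisons. Csf2rb reached 15.3, 14.6 and 10.9 CPM in SiaLo_PD1pos, 25.1, 28.5 and 35.4 CPM in SiaHi_PD1pos and 153, 205 and 165 CPM in SiaHi_PD1neg. Csf2ra reached 23.4, 20.3 and 21.5 CPM in SiaLo_PD1pos, 41.9, 48.5 and 45.9 CPM in SiaHi_PD1pos and 113, 119 and 132 CPM in SiaHi_PD1neg. For both genes the 3 groups stood apart without overlap. For SiaLo_PD1pos over SiaHi_PD1pos the log2 fold change was -1.12 ± 0.19 for Csf2rb (adjusted p = 0.00819) and -1.06 ± 0.14 for Csf2ra (adjusted p = 0.00156), and both calls held in 9 of 9 fits with 1 library left out. Over SiaHi_PD1neg, Csf2rb was 5.87-fold lower in SiaHi_PD1pos (adjusted p = 3.69e-07) and 12.8-fold lower in SiaLo_PD1pos (adjusted p = 1.76e-08). Csf2ra was 2.67-fold lower in SiaHi_PD1pos (adjusted p = 4.05e-06) and 5.58-fold lower in SiaLo_PD1pos (adjusted p = 3.16e-08). Dendritic cells express both, and 7 of 10 conventional dendritic cell genes were also lower in SiaLo_PD1pos than in SiaHi_PD1pos, and their part was not tested.

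Among the transcription factors, Irf8, which directs monocyte and dendritic cell development and is also made by some T cells, averaged 375 ± 14.5 CPM in SiaLo_PD1pos, 399 ± 47.1 CPM in SiaHi_PD1pos and 1645 ± 376 CPM in SiaHi_PD1neg (SD, n = 3 each). It was 4.12-fold lower in SiaHi_PD1pos (adjusted p = 7.18e-07) and 4.38-fold lower in SiaLo_PD1pos (adjusted p = 3.25e-07). Spi1, named after its values were seen because it encodes PU.1, averaged 19.3 ± 2.71 CPM in SiaLo_PD1pos, 36.3 ± 13.3 CPM in SiaHi_PD1pos and 129 ± 3.09 CPM in SiaHi_PD1neg. Its log2 fold change was -1.83 ± 0.22 for SiaHi_PD1pos over SiaHi_PD1neg (adjusted p = 2.13e-05) and -0.91 ± 0.22 for SiaLo_PD1pos over SiaHi_PD1pos (adjusted p = 0.0649).

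Of 10 monocyte genes 4 were lower in SiaHi_PD1pos and 6 in SiaLo_PD1pos than in SiaHi_PD1neg. Ly6c2, a surface antigen of inflammatory monocytes that CD8+ T cells also carry, averaged 333 ± 67.1 CPM in SiaLo_PD1pos, 385 ± 120.3 CPM in SiaHi_PD1pos and 759 ± 187 CPM in SiaHi_PD1neg, with log2 fold changes of -0.98 in SiaHi_PD1pos (adjusted p = 0.00362) and -1.19 in SiaLo_PD1pos (adjusted p = 0.000956). F13a1, coagulation factor XIII of monocytes, was lower in SiaLo_PD1pos (6.43, 5.77 and 3.8 CPM) than in SiaHi_PD1pos (13.6, 18 and 9.9 CPM), with a log2 fold change of -1.37 ± 0.31 (adjusted p = 0.0441). That call was kept in 2 of 9 fits with 1 library left out (those without SiaHi_PD1pos replicate 3 or SiaHi_PD1neg replicate 2), with an adjusted p of up to 0.244 in the others.

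Of 12 cytokine, chemokine and enzyme genes of activated macrophages 5 were lower in SiaHi_PD1pos and 8 in SiaLo_PD1pos than in SiaHi_PD1neg. Il1b, the inflammatory cytokine interleukin 1 beta, reached 83.4, 81.0 and 76.3 CPM in SiaLo_PD1pos, 135, 288 and 163 CPM in SiaHi_PD1pos and 444, 459 and 505 CPM in SiaHi_PD1neg. The 3 groups did not overlap, and Il1b was lower in all 3 comparisons. The log2 fold change was -1.28 ± 0.22 for SiaLo_PD1pos over SiaHi_PD1pos (adjusted p = 0.0098), -1.27 ± 0.22 for SiaHi_PD1pos over SiaHi_PD1neg (adjusted p = 0.000434) and -2.55 ± 0.23 for SiaLo_PD1pos over SiaHi_PD1neg (adjusted p = 1.22e-06). Without SiaHi_PD1pos replicate 2 the first of these remained called. Il10, an anti-inflammatory cytokine that T cells also make, was named after its values were seen as the other gene higher in SiaHi_PD1pos than in SiaHi_PD1neg, at 38.9 ± 14.5 CPM against 16.8 ± 0.810 CPM (log2 fold change 1.21 ± 0.28, adjusted p = 0.00342). With T cell core scaling the log2 fold change of Il10 turned to -0.72 and Il10 was called lower.

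**Figure D5:**
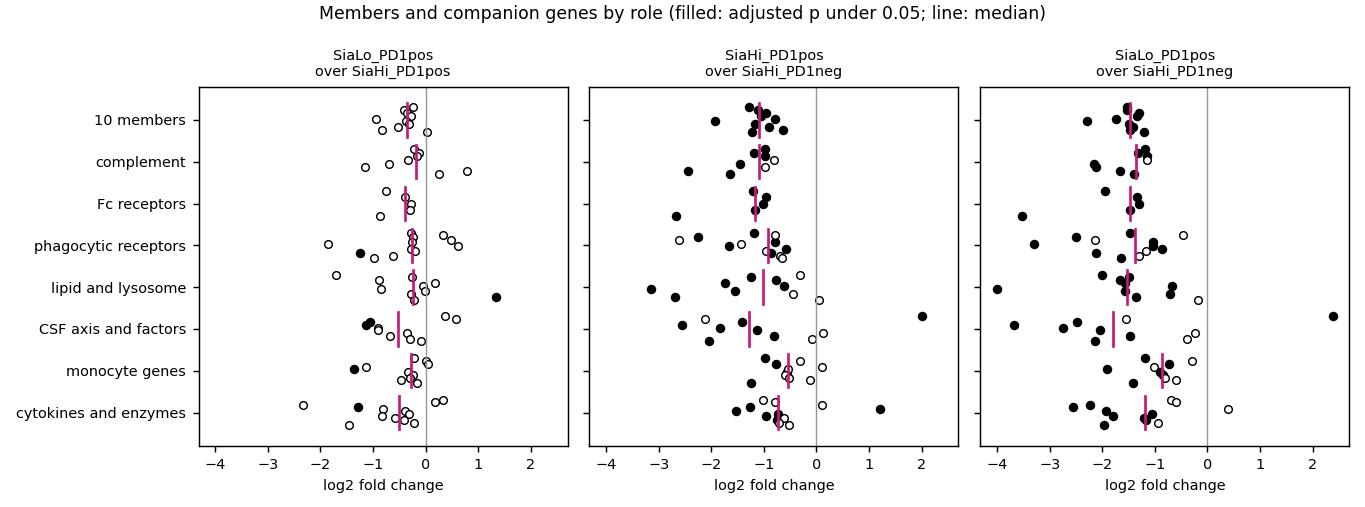
Log2 fold change of the 10 members and of 67 companion genes grouped by role, for SiaLo_PD1pos over SiaHi_PD1pos (left), SiaHi_PD1pos over SiaHi_PD1neg (middle) and SiaLo_PD1pos over SiaHi_PD1neg (right); each point is a gene, filled points passed an adjusted p under 0.05 and vertical bars are medians. Medians are below 0 in every row and panel, and Csf1 stands far above 0 in the middle and right panels.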

How the data were processed

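The authors deposited whole-read counts per gene for 9 libraries, which they made with Trim Galore 0.6.5, STAR 2.7.6a and featureCounts 1.6.3 on GRCm38, per the submitters' processing notes. Gene spans in the deposited table differ from GRCm38 for 10 of 10 members, so coordinates were taken from a GRCm38 annotation. Strand setting and treatment of multi-mapping reads were not stated, and without molecular identifiers the reads may include PCR copies.

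All libraries entered 1 fit with edgeR 4.0.16 (R 4.3.3, limma 3.58.1): filterByExpr, TMM factors, robust quasi-likelihood F test on group, 6 residual degrees of freedom, Benjamini-Hochberg adjustment over all 15292 tested genes, calls at an adjusted p under 0.05. Depth was 9714020 to 15030442 counts, and replicates differed by more than sampling noise (chi-square 6.84 to 54.9 per degree of freedom). No deposited sample column was left unused. Counts simulated with 200 changed genes were used to check the scripts. Standard errors are the log2 fold change divided by the square root of F. TPM used the table's gene lengths. Likeness used log2(CPM + 0.1).

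The members, the companion lists and the marker lists were chosen with earlier results of these data known. The text names all members, the gene of each companion or marker list with the highest mean over all libraries, the 6 called companions with the smallest adjusted p per comparison, and the 5 genes nearest to C1q, Apoe, Lyz2 and Mrc1, of which 1 is not reported here. Ccr7, Retnlg, S100a8 and S100a9, Spi1 and Il10 were added once values had been seen. Alternatives were DESeq2 size factors, no composition scaling, T cell core scaling, no low-count filter, a floor of 5 CPM in 3 libraries, limma-voom with quality weights, DESeq2 1.42.0, the replicate number as a block, only the 6 libraries compared, and each library left out. Ratios to C1q reads were tested with exact permutation tests (scipy 1.17.1).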

Additional observations from a re-analysis of the deposited data

How the results depend on the processing

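For the PD-1-positive groups against SiaHi_PD1neg, all members kept their direction in all 18 alternatives. All calls of SiaLo_PD1pos over SiaHi_PD1neg held in them, and those of SiaHi_PD1pos over SiaHi_PD1neg held except for Lyz2 and Mrc1, as given above (8 to 10 members called when 1 library was left out). For SiaLo_PD1pos over SiaHi_PD1pos, where 0 members were called, 1 was called with T cell core scaling, 2 without the low-count filter, 1 with DESeq2 and 1 with limma-voom, and 0 when any library was left out. Companions called there numbered 6, against 17 without the filter, 13 with DESeq2, 12 with limma-voom and 4 to 7 with 1 library left out. Of all genes 214 were called, against 535, 466 and 1262 in those settings and 105 to 232 with 1 library left out (114, 110 and 105 without SiaLo_PD1pos replicates 1, 2 and 3, and 133 without SiaHi_PD1pos replicate 3). T cell core scaling called 66 companions in place of 41 and 12599 genes in place of 6160 for SiaHi_PD1pos over SiaHi_PD1neg, and 12812 genes in place of 6027 for SiaLo_PD1pos over SiaHi_PD1neg, and its construction lowers genes in the groups with more T cell reads. With 1 library left out these comparisons called 28 to 46 and 44 to 51 companions, and 4885 to 6328 and 4534 to 6574 genes. Signs turned only in SiaLo_PD1pos over SiaHi_PD1pos, among members not called. Fcgr1 was -0.058 with T cell core scaling and -0.18 to 0.28 with 1 library left out, Apoe 0.074 with limma-voom and -0.37 to 0.027 with 1 library left out, C1qc 0.043 with limma-voom and -0.40 to 0.048, and C1qb -0.56 to 0.055. The cause was not tested. A replicate block gave 0, 10 and 10 members, 9, 43 and 50 companions and 265, 6200 and 6109 genes for SiaLo_PD1pos over SiaHi_PD1pos, SiaHi_PD1pos over SiaHi_PD1neg and SiaLo_PD1pos over SiaHi_PD1neg. Deviations of libraries sharing a number correlated by 0.0617, 0.118 and 0.101 in the first comparison and by -0.011 to 0.0728 in the others, so the numbers were not taken as pairs. In the first comparison every library correlated best with its own number, a hint from the data and not from the design, and in the others not every library did. With 3 libraries a group, the 95% intervals given for SiaLo_PD1pos over SiaHi_PD1pos show the precision for members not called.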
